A study of Homo sapiens with 29 samples.

Results

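The plasminogen activators and serpins described here are 9 genes: PLAU, PLAT, PLAUR, SERPINE2, SERPINB2, SERPINB7, SERPINB8, SERPINF1 and SERPINH1. They were found by symbol among the 28266 genes of the raw count table, and all 9 passed the filter on low counts that left 13136 genes to test. The cells were IMR90 ER:RAS fibroblasts, and their polyadenylated RNA was sequenced. IMR90 is a long-established human lung fibroblast line, and here it was infected with a retrovirus for a fusion protein of oncogenic RAS and the estrogen receptor. The fusion is present in every group, and 4-hydroxytamoxifen (4OHT) activates it, after which the fibroblasts enter oncogene-induced senescence. DMSO_siNT cells received the solvent and non-targeting siRNA, 4OHT_siNT cells received 4OHT and the same siRNA, and 4OHT_siSMARCA4 cells received 4OHT and siRNA against SMARCA4 (BRG1), an ATPase that drives SWI/SNF chromatin remodelling. The siRNA was given before the drug and RNA was taken on day 7. Each group held 6 libraries, 3 with an siRNA numbered 2 and 3 with an siRNA numbered 4. No DMSO library with SMARCA4 siRNA was analysed here, so an effect of the knockdown in cells that are not senescent was not measured.

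Plasminogen is the inactive precursor of plasmin, the protease that dissolves fibrin and cuts many matrix proteins. It is cut to plasmin by urokinase (the product of PLAU), which is held at the cell surface by its receptor PLAUR, and by the tissue-type activator (PLAT), which acts mainly on fibrin. Serpins are a family of mostly inhibitory proteins that trap a protease by being cut. SERPINE2 (protease nexin 1) inhibits thrombin and both activators, and SERPINB2 (plasminogen activator inhibitor type 2) inhibits urokinase and is largely kept inside the cell. SERPINB7 and SERPINB8 are intracellular clade B serpins, the former known from skin and kidney and the latter as an inhibitor of furin-like proteases. SERPINF1 (pigment epithelium-derived factor) and SERPINH1 (HSP47) do not inhibit proteases. The first is a secreted factor known to restrain the growth of vessels, and the second is the collagen chaperone of the endoplasmic reticulum. Urokinase, its receptor and several serpins are commonly listed among the factors that senescent fibroblasts release.

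RefSeq promoter windows, from 250 bases before to 50 bases after an annotated start on GRCh38.p14, were found for 7 of the 9 genes, and PLAT and SERPINF1 were not in that table. The windows were searched for TGACTCA and TGAGTCA, the core site known for AP-1 transcription factors and its reverse complement, so that both strands were covered. The motif was in 4 of the 12 windows of these genes, in PLAUR, SERPINB7 and SERPINB8, beside 4.95% of all 35116 windows. The 4 stretches are shown because 2 of the genes that hold the motif (PLAUR, SERPINB8) were higher in senescence below and 1 (SERPINB7) was lower, while PLAU, SERPINE2, SERPINB2 and SERPINH1 had no match in their windows. Capitals mark the motif, and each stretch reads 5′ to 3′ on the strand of its gene.
PLAUR, chr19:43670339-43670365, minus strand, motif starting 186 bases before the start: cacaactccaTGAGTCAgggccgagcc
SERPINB7, chr18:63775369-63775395, plus strand, motif starting 39 bases before a start: tgctgtgctcTGAGTCAtagggaagcc
SERPINB7, chr18:63777726-63777752, plus strand, motif starting 45 bases before another start: agggagtgtcTGAGTCAgaggctttat
SERPINB8, chr18:63970043-63970069, plus strand, motif starting 28 bases before the start: cgaacggttcTGAGTCAtctgccggaa
A match is a description of letters, and no binding was measured in these libraries.

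Per the GENCODE version 44 annotation of GRCh38, all 9 are protein-coding genes. PLAU lies at chr10:73909177-73917496 on the plus strand, PLAT at chr8:42174718-42207709 on the minus strand, and PLAUR at chr19:43646095-43670547 on the minus strand. SERPINE2 lies at chr2:223975045-224039318 on the minus strand, SERPINF1 at chr17:1762029-1777565 and SERPINH1 at chr11:75562056-75572783, both on the plus strand. SERPINB7 (chr18:63752935-63805376), SERPINB2 (chr18:63871692-63903888) and SERPINB8 (chr18:63970029-64019779) lie in this order on the plus strand of chromosome 18, with SERPINB10 between the last pair.

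The libraries held 9657309 to 18039313 counts. The fibroblast markers were present, with 9 or 10 of the 10 listed genes above 10 CPM (CPM are counts scaled to the size of each library, here with TMM factors for composition) in each group. Their summed level was 11559 to 31418 CPM in DMSO_siNT, 15044 to 19926 CPM in 4OHT_siNT and 8705 to 12711 CPM in 4OHT_siSMARCA4, so it moved with the knockdown, and its part in the results was not tested. The collagens carried most of that fall (COL1A1 from 7053 to 2642 CPM), while VIM was at 6792 and 6663 CPM and FAP at 117 and 112 CPM. In senescence DCN went from 625 to 17.4 CPM and COL1A2 from 6623 to 2315 CPM. In any library the listed epithelial markers summed to at most 84.5 CPM, the endothelial to at most 15.6 CPM and the blood markers to at most 74.9 CPM. Of these only KRT18 and CD68 had group means above 10 CPM. KRT18 was at 63.2, 61.0 and 42.8 CPM in DMSO_siNT, 4OHT_siNT and 4OHT_siSMARCA4, and CD68 at 52.8, 58.6 and 59.7 CPM. In bulk RNA, fewer cells of a kind and less RNA per cell cannot be told apart. SMARCA4 itself, at 217 ± 15.3 CPM in DMSO_siNT, was 301 ± 20.9 CPM in 4OHT_siNT and 99.0 ± 27.6 CPM in 4OHT_siSMARCA4 (mean ± SD, n = 6 libraries each, as for all levels below). The labels add a set name ending in V or VM, which is not explained: all 6 of the 4OHT_siNT libraries are VM, DMSO_siNT has 3 V and 3 VM, and 4OHT_siSMARCA4 has 3 V, 2 VM and 1 library whose columns matched no sample title, called the unlabelled library here although its column names read 1VM. The library DMSO_siNT 4-2V (siRNA 4, set 2V) had the lowest depth and the most genes detected, and it stood apart from its group in several of the 9 genes, so the main results that change without it are given both ways.

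Per kilobase of annotated exon, the only scale here on which different genes can be ordered, PLAU was the highest of the 9 in every group. Its level was 327 CPM per kilobase in DMSO_siNT, 1678 in 4OHT_siNT and 1836 in 4OHT_siSMARCA4. In DMSO_siNT the next was SERPINH1 at 113, followed by PLAT at 47.5 and SERPINB7 at 35.8. In 4OHT_siNT the order was PLAT at 401, SERPINB2 at 191, SERPINH1 at 92.2, PLAUR at 65.1 and SERPINE2 at 37.5. The lowest in 4OHT_siNT were SERPINB7 at 17.9, SERPINB8 at 16.6 and SERPINF1 at 11.9. By group means SERPINB7 thus went from the fourth place to the seventh, and SERPINB2 from the seventh to the third. In DMSO_siNT the libraries of SERPINB7 overlapped on this scale with those of every other member but PLAU and SERPINB8. Its place there is therefore not fixed beyond the spread. PLAT and PLAUR overlapped too. In 4OHT_siNT those of SERPINB7 overlapped with SERPINB8 and with SERPINF1, while SERPINB8 lay above SERPINF1 in every library. The exon length counts every annotated transcript, so a gene with a long, rarely used exon is placed too low.

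**Figure D1:**
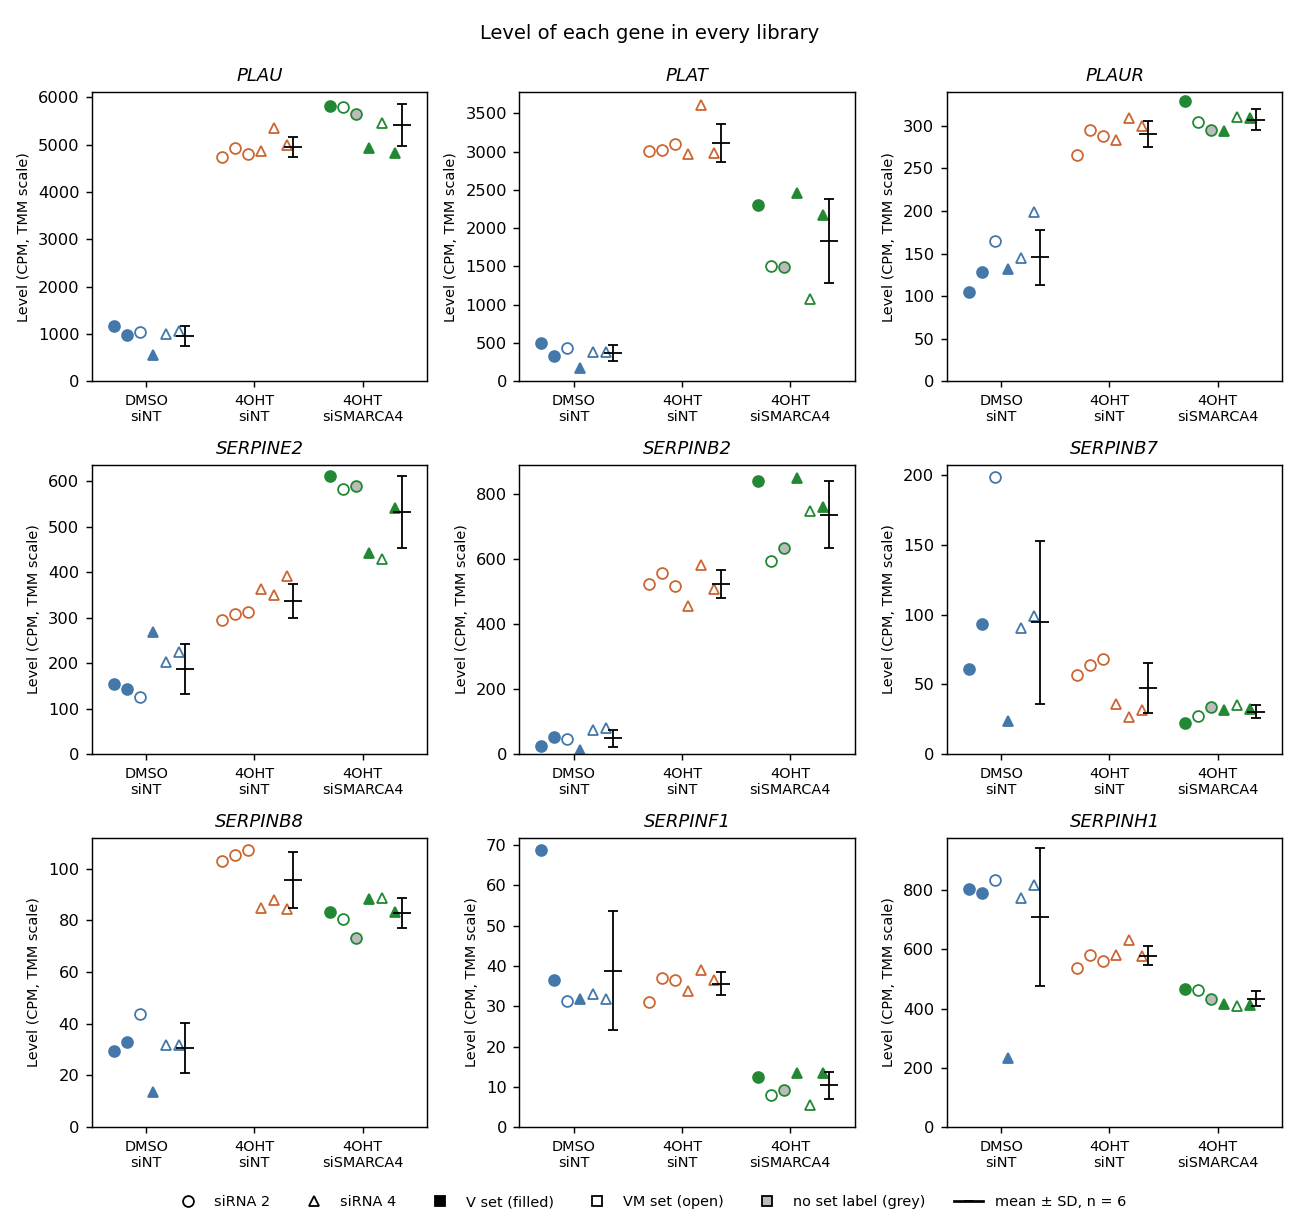
Level of each of the 9 genes in every library (CPM on the TMM scale, linear axes from 0), with groups along the x axis, circles for siRNA 2, triangles for siRNA 4, filled points for V sets, open points for VM sets, a grey point for the unlabelled library, and a bar for the mean ± SD of 6 libraries. PLAU, PLAT, PLAUR, SERPINE2, SERPINB2 and SERPINB8 sit higher in both 4OHT groups than in DMSO_siNT, and SERPINF1 is low only in the knockdown libraries, at 5.36 to 13.5 CPM.

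The comparison of 4OHT_siNT with DMSO_siNT asks which of these genes change when the cells become senescent. Both activators, the receptor and 3 serpins rose, and 1 serpin fell: 6 of the 9 were called higher and 1 lower at an adjusted p below 0.05, beside 23.9% of all genes tested called higher and 28.9% called lower (52.8% in all). The median log2 fold change was 1.00 over the 9 genes and −0.05 over all genes tested. In 6 of the 9 the libraries of the groups did not overlap, beside 33.8% of all genes tested. The same DMSO_siNT and 4OHT_siNT libraries also enter the later comparisons, so the 3 are not independent.

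The level of PLAU, the urokinase gene, ran from 551 CPM over a median of 1022 to 1165 CPM in DMSO_siNT, and from 4739.8 over 4904 to 5358 CPM in 4OHT_siNT. Every senescent library was above 4 times the highest control, and the lowest control was DMSO_siNT 4-2V. The fitted rise was 5.13-fold, a log2 fold change of 2.36 ± 0.15 (SE; edgeR adjusted p = 1.03e-10), and 2.25 without that library. PLAT, the tissue-type activator, ran from 180.1 over 381 to 504 CPM in DMSO_siNT and from 2968 over 3013 to 3607 CPM in 4OHT_siNT. Its rise was larger, 8.45-fold or 3.08 ± 0.23 (edgeR adjusted p = 1.33e-09). PLAUR, the receptor, ran from 105 over 138 to 198 CPM in DMSO_siNT and from 265 over 291 to 309 CPM in 4OHT_siNT. It rose 1.99-fold, by 1.00 ± 0.12 (edgeR adjusted p = 8.69e-07), so receptor and activators rose together but not by the same factor. Within DMSO_siNT the 3 V libraries had 105 to 131 CPM of PLAUR and the 3 VM libraries 145 to 198 CPM, and with VM sets alone the log2 fold change was 0.78.

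Among the 9 genes, the serpins that inhibit the activators, SERPINB2 and SERPINE2, rose as well. SERPINB2 and PLAT had the largest fitted rises of the 9 genes, and which was first depended on the libraries used: with siRNA 4 libraries alone SERPINB2 was at 3.24 and PLAT at 3.37. The level of SERPINB2 ran from 12.9 CPM over a median of 49.6 to 79.9 CPM in DMSO_siNT and from 455 over 519 to 582 CPM in 4OHT_siNT, so the ranges lay far apart. The fold was 10.8, a log2 fold change of 3.43 ± 0.31 (edgeR adjusted p = 2.10e-08), and it was 2.97 with VM sets alone, where the 3 DMSO_siNT libraries had 46.6 to 79.9 CPM against 12.9 to 52.7 CPM in the V sets. SERPINE2, protease nexin 1, ran from 126 over 179 to 268 CPM in DMSO_siNT and from 295 over 330.2 to 391 CPM in 4OHT_siNT. The groups did not overlap, and the highest control was DMSO_siNT 4-2V, the library that was lowest in most of the other genes. The rise was 1.80-fold, 0.85 ± 0.16 (edgeR adjusted p = 0.000219).

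SERPINB8 and SERPINB7, the other clade B serpins among the 9, moved in opposite directions. SERPINB8 ran from 13.7 over 31.7 to 43.6 CPM in DMSO_siNT and from 84.5 over 95.4 to 107 CPM in 4OHT_siNT, a rise of 3.12-fold or 1.64 ± 0.17 (edgeR adjusted p = 1.95e-07). SERPINB7 ran from 23.9 over 92.0 to 199 CPM in DMSO_siNT and from 26.3 over 46.7 to 67.9 CPM in 4OHT_siNT. It was called lower, by 2.00-fold or −1.002 ± 0.34 (edgeR adjusted p = 0.0180), but the groups overlapped and the controls varied most among the 9 genes, with an SD of 61.7% of their mean. The highest control was DMSO_siNT 2-2VM. Without it the log2 fold change was −0.64 and no longer called (adjusted p = 0.0765), and without DMSO_siNT 4-2V it was −1.20 (adjusted p = 0.000444). With VM sets alone it was −1.45 (adjusted p = 0.000491). There the DMSO_siNT libraries had 90.5 to 199 CPM, against 23.9 to 93.4 CPM in the V sets. In all, 4 alternative fits lost the call.

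SERPINF1 and SERPINH1, the members that do not inhibit proteases, were not called. SERPINF1 ran from 31.3 over 32.5 to 68.7 CPM in DMSO_siNT and from 30.9 over 36.5 to 38.9 CPM in 4OHT_siNT. Its log2 fold change was −0.13 with a 95% interval from −0.57 to 0.31, and 0.12 without DMSO_siNT 2-1V, the library with 68.7 CPM. SERPINH1 ran from 233 over 796 to 835 CPM in DMSO_siNT and from 536 over 579.7 to 634 CPM in 4OHT_siNT. All DMSO_siNT libraries but 4-2V lay between 775 and 835 CPM, above every senescent library, and 4-2V lay below all of them. With all libraries the log2 fold change was −0.29 ± 0.20 (edgeR adjusted p = 0.233). Without that library it was −0.47 (adjusted p = 6.40e-06), and with VM sets alone it was −0.48 (adjusted p = 0.000197), so the call for SERPINH1 rests on the treatment of 1 library.

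**Figure D2:**
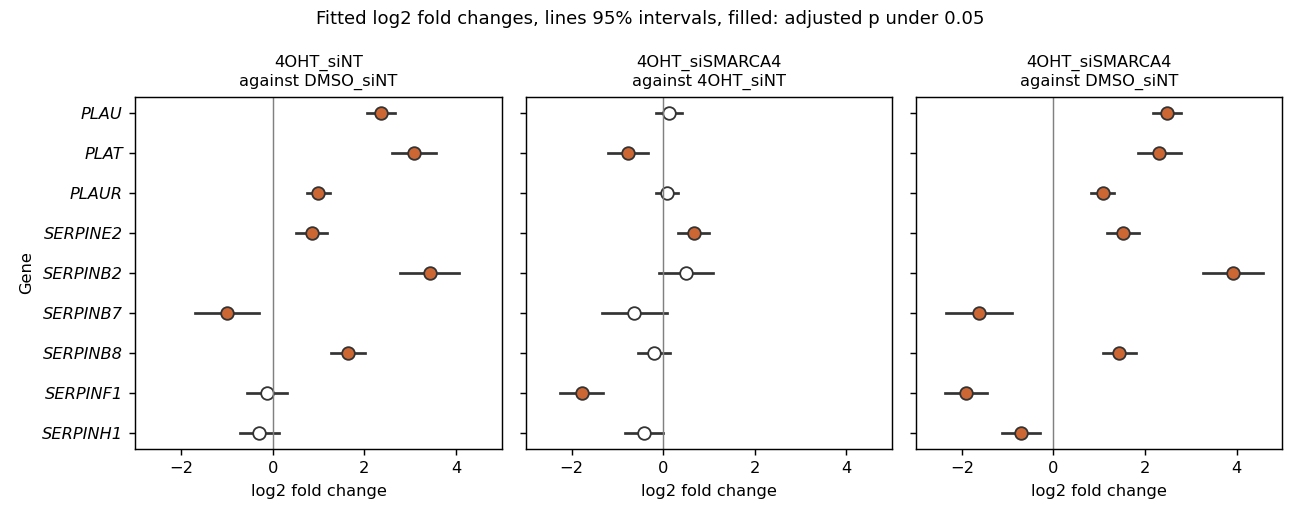
Fitted log2 fold change (x axis) of each of the 9 genes (y axis) in the 3 comparisons, with lines for the 95% interval and filled points where the adjusted p was below 0.05. Against DMSO_siNT the activators, PLAUR, SERPINE2, SERPINB2 and SERPINB8 lie to the right of 0 in both 4OHT groups, while between the 4OHT groups PLAT (−0.77), SERPINE2 (0.66) and SERPINF1 (−1.78) are the filled points.

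The comparison of 4OHT_siSMARCA4 with 4OHT_siNT asks what loss of SMARCA4 does in senescent cells. SERPINF1 and PLAT fell and SERPINE2 rose. These are 3 of the 9 genes, beside 10.6% of all genes tested (4.99% higher, 5.65% lower). The median log2 fold change of the 9 was −0.20, beside 0.01 over all genes tested. The libraries of the groups did not overlap in 5 of the 9 genes, beside 11.4% of all genes tested. Of these, SERPINE2 and SERPINB2 were higher (5.12% of all genes) and PLAT, SERPINF1 and SERPINH1 lower (6.27%), and SERPINB2 and SERPINH1 were not called.

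SERPINF1, the anti-angiogenic factor, fell most. It ran from 30.9 over 36.5 to 38.9 CPM in 4OHT_siNT and from 5.36 over 10.9 to 13.5 CPM in 4OHT_siSMARCA4. Every knockdown library was thus under 14 CPM, and every other library analysed was above 30 CPM. The fall was 3.44-fold, −1.78 ± 0.22 (edgeR adjusted p = 6.47e-05), with a 95% interval from −2.24 to −1.32. PLAT fell from 3115 ± 246 to 1833 ± 552 CPM, with knockdown libraries at 1071 over 1841 to 2455 CPM, all below the lowest 4OHT_siNT library. The fall was 1.70-fold, −0.77 ± 0.21 (edgeR adjusted p = 0.0248), and it took back only part of the senescence rise, since the lowest knockdown library still had more PLAT than the highest DMSO_siNT library. That call was lost when any of 4 libraries was left out: 4OHT_siNT 4-2VM (adjusted p = 0.0522), 4OHT_siSMARCA4 2-3VM (0.0600) or 4-2VM (0.0562), or the unlabelled library (0.0610). Without DMSO_siNT 4-2V it was −0.77 with an adjusted p of 0.00166.

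Within the knockdown group, PLAT and SERPINF1 differed between the set names, and so did SERPINB2 (given below) and the SMARCA4 that was left. PLAT was 2299, 2455 and 2172 CPM in the 3 V libraries, 1509.6 and 1071 CPM in the VM libraries and 1489 CPM in the unlabelled library. SERPINF1 was 12.5, 13.5 and 13.4 CPM in V, 7.97 and 5.36 CPM in VM and 9.29 CPM in the unlabelled library. SMARCA4 was 125, 141 and 92.7 CPM in the same V libraries, 87.0 and 70.4 CPM in VM and 78.8 CPM in the unlabelled library. As shares of the 4OHT_siNT mean, the library with the least SMARCA4 (4-2VM, 23.3%) had 34.4% of PLAT and 15.1% of SERPINF1, and the library with the most (4-2V, 46.7%) had 78.8% of PLAT and 37.8% of SERPINF1. The 6 libraries came in the same order for PLAT as for SMARCA4, which was noticed after the values were seen. The same order held for 0.221% of the other tested genes, the opposite order for 0.289%, and neither SERPINF1 nor any of the other 7 members kept it. SERPINF1 departed from it within V and between the unlabelled library and 2-3VM. Since V and VM move with the SMARCA4 left, the set and the depth of the knockdown cannot be told apart here. With VM sets alone, where both groups have libraries, the fall was larger: −1.29 ± 0.14 for PLAT (edgeR adjusted p = 3.32e-05) and −2.43 ± 0.16 for SERPINF1 (edgeR adjusted p = 5.24e-07). With the unlabelled library counted as VM they were −1.21 and −2.25. No 4OHT_siNT library is V, so V sets alone give no value.

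**Figure D3:**
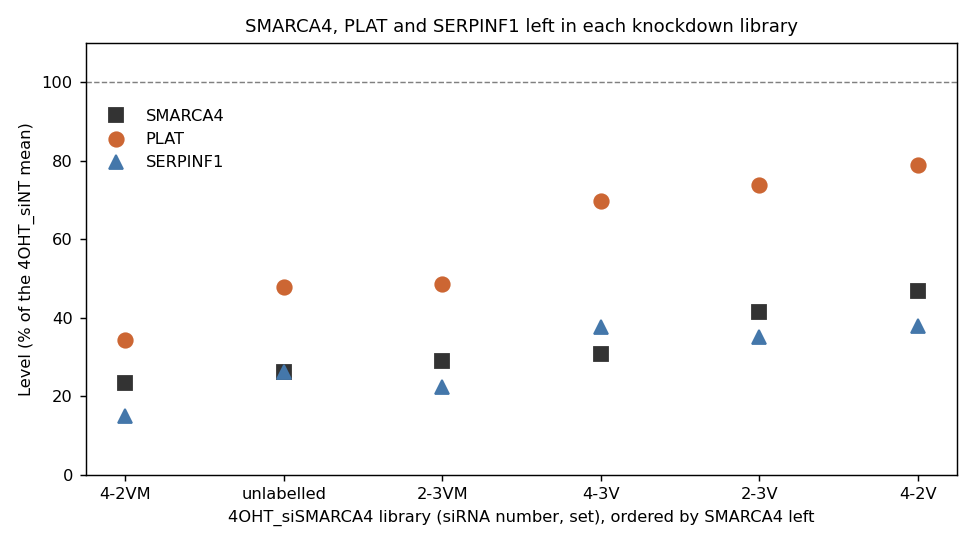
Level of SMARCA4, PLAT and SERPINF1 in each 4OHT_siSMARCA4 library (y axis, % of the 4OHT_siNT mean, dashed line at 100), with libraries along the x axis in order of the SMARCA4 left. PLAT climbs from 34.4% to 78.8% in the same order as SMARCA4, and the 3 V libraries on the right are above the others for both genes.

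SERPINE2 rose in the knockdown, from 336 ± 37.1 to 532 ± 78.6 CPM. The libraries ran from 295 to 391 CPM in 4OHT_siNT and from 428 over 561 to 611 CPM in 4OHT_siSMARCA4, a rise of 1.58-fold or 0.66 ± 0.16 (edgeR adjusted p = 0.0123). It was called in each fit that left out 1 library, with adjusted p from 0.00146 to 0.0369, and not with siRNA 4 libraries alone (0.33, adjusted p = 0.586), a fit that called 0.0303% of all genes. Its level therefore went up at both steps, from DMSO_siNT to 4OHT_siNT and from there to 4OHT_siSMARCA4. The level of SERPINB2 went the same way, from 523 ± 43.9 to 736 ± 104 CPM, with every knockdown library (593 to 847 CPM) above every 4OHT_siNT library. Its log2 fold change of 0.49 ± 0.28 was not called (edgeR adjusted p = 0.293), and the fit shares its spread with the DMSO_siNT libraries, which varied by 53.8% of their mean. With only the 4OHT groups in the fit it was 0.49 with an adjusted p of 0.00154, beside 26.9% of all genes called. In the knockdown group SERPINB2 was at 759 to 847 CPM in the V libraries, 593 and 747 CPM in VM and 634 CPM in the unlabelled library. All 4OHT_siNT libraries are VM, so the set and the knockdown cannot be fully told apart for this rise.

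SERPINH1 lay at 579 ± 32.0 CPM in 4OHT_siNT and at 434 ± 25.4 CPM in 4OHT_siSMARCA4, with knockdown libraries from 409 to 465 CPM, while no 4OHT_siNT library was under 536 CPM. With all libraries this gave −0.42 ± 0.20 on the log2 scale (edgeR adjusted p = 0.208), and without DMSO_siNT 4-2V it gave −0.43 ± 0.066 (adjusted p = 0.000131). The estimate thus kept its size and its error shrank when 1 control library was left out. Without that library 24.6% of all genes tested were called, and SERPINH1 was the fourth of the 9 genes called.

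The other 4 genes were not called with all libraries. PLAU was at 5413 ± 433 CPM in the knockdown against 4949 ± 219 CPM, a log2 fold change of 0.13 with a 95% interval from −0.16 to 0.42. PLAUR was at 307 ± 12.5 against 290 ± 15.0 CPM, with 0.08 and an interval from −0.16 to 0.33. SERPINB8 was at 82.9 ± 5.66 against 95.5 ± 10.8 CPM, with −0.20 and an interval from −0.56 to 0.15. SERPINB7 was at 30.5 ± 4.70 against 47.2 ± 17.9 CPM, with −0.63 and an interval from −1.34 to 0.08, and with only the 4OHT groups in the fit it was called (−0.63, adjusted p = 0.0332). The intervals for PLAU, PLAUR and SERPINB8 exclude a fall as large as the one fitted for PLAT, while the interval for SERPINB7 does not.

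Against DMSO_siNT, the knockdown cells differed in all 9 genes, 6 higher and 3 lower, beside 50.5% of all genes tested (23.3% higher, 27.3% lower). The libraries did not overlap in 7 of the 9, beside 29.6% of all genes tested. The median log2 fold change was 1.44 over the 9 and −0.04 over all genes tested. SERPINB2 stood 15.1-fold above the control (3.92 ± 0.32, edgeR adjusted p = 3.61e-09), PLAU 5.61-fold (2.49 ± 0.15, edgeR adjusted p = 4.72e-11) and PLAT 4.97-fold (2.31 ± 0.22, edgeR adjusted p = 4.08e-08). SERPINE2, SERPINB8 and PLAUR stood 2.85-fold, 2.71-fold and 2.11-fold above it. SERPINF1 stood 3.75-fold below the control (−1.91 ± 0.22, edgeR adjusted p = 5.51e-07), SERPINB7 3.10-fold below (−1.63 ± 0.34, edgeR adjusted p = 0.000540) and SERPINH1 1.63-fold below (−0.71 ± 0.20, edgeR adjusted p = 0.00643). SERPINB7 and SERPINH1 libraries overlapped with the controls, in both genes through DMSO_siNT 4-2V, which had 23.9 CPM of SERPINB7 and 233 CPM of SERPINH1.

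The 2 siRNAs against SMARCA4 were also compared each with the non-targeting siRNA of the same number, with 3 libraries on a side. SERPINF1 was the only one of the 9 called with both: −1.80 ± 0.31 with siRNA 2 (edgeR adjusted p = 0.00184) and −1.77 ± 0.31 with siRNA 4 (edgeR adjusted p = 0.00618). PLAT had nearly the same estimate with each, −0.78 ± 0.30 and −0.76 ± 0.30, and was called with neither (edgeR adjusted p = 0.139 and 0.192). SERPINE2 rose with siRNA 2 (0.96 ± 0.13, edgeR adjusted p = 0.000294) and was not called with siRNA 4 (0.34 ± 0.13, edgeR adjusted p = 0.170). In all, 2 of the 9 were called with siRNA 2, 1 higher and 1 lower, beside 7.67% of 13659 genes (2.83% higher, 4.85% lower). With siRNA 4 it was 1, lower, beside 2.71% (1.16% lower). Without DMSO_siNT 4-2V these counts were 6 and 5, with PLAT, SERPINE2, SERPINF1 and SERPINH1 called with both siRNAs, SERPINB7 and SERPINB8 with siRNA 2 and SERPINB2 with siRNA 4. The share of all genes called rose too, to 20.1% with siRNA 2 and 16.2% with siRNA 4.

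**Figure D4:**
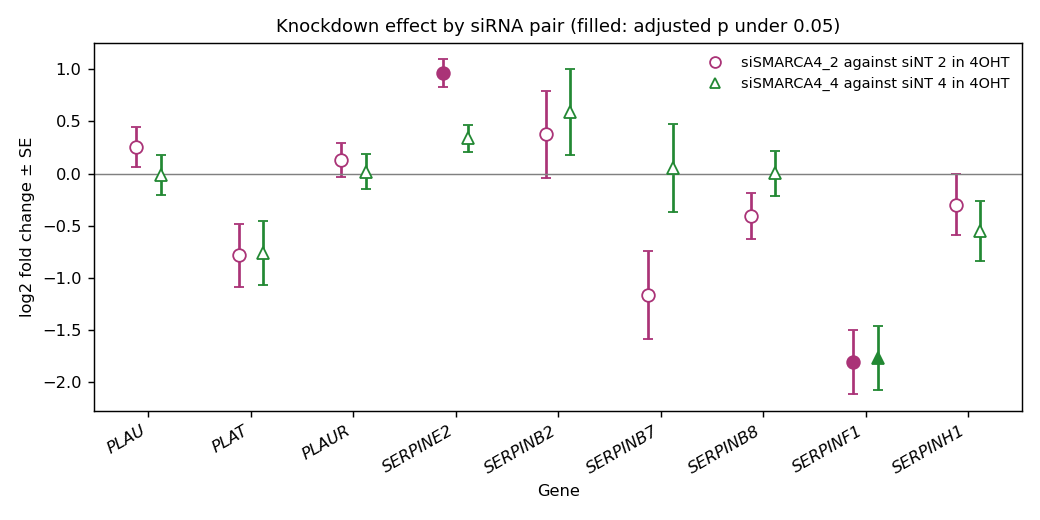
Log2 fold change ± SE (y axis) of each of the 9 genes (x axis) for SMARCA4 siRNA against non-targeting siRNA of the same number in 4OHT cells, circles for siRNA 2 and triangles for siRNA 4, filled where the adjusted p was below 0.05. SERPINF1 lies near −1.8 with both, while SERPINE2 is at 0.96 with siRNA 2 and 0.34 with siRNA 4.

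The siRNAs were paired by number only, so a difference between the 2 siRNA effects also holds any difference between the non-targeting siRNAs. A test of this difference called none of the 9 genes in edgeR, beside 0.0146% of all genes, and 1 had an unadjusted p below 0.05. That gene was SERPINE2, with a difference of 0.63 ± 0.18 (p = 0.00333, edgeR adjusted p = 0.382, and 0.0571 without DMSO_siNT 4-2V). The level of SERPINE2 also stood apart between the non-targeting siRNAs. It was at 126 to 155 CPM with siNT 2 and at 203 to 268 CPM with siNT 4 in DMSO, and at 295 to 311 CPM and 349 to 391 CPM in 4OHT, so siNT 4 libraries were higher in both treatments with no overlap. Its log2 fold change of siNT 2 against siNT 4 was −0.72 ± 0.13 in DMSO (edgeR adjusted p = 0.0550, and −0.61 with 0.0370 without 4-2V) and −0.27 ± 0.13 in 4OHT (edgeR adjusted p = 0.475). SERPINB7 split the other way in 4OHT, at 57.0 to 67.9 CPM with siNT 2 and 26.3 to 36.4 CPM with siNT 4, a log2 fold change of 1.00 ± 0.42 (p = 0.0294, edgeR adjusted p = 0.404). Its knockdown libraries, at 22.5 to 35.0 CPM, lay near those of siNT 4 and below those of siNT 2, and its knockdown estimate was −1.17 against siNT 2 and 0.05 against siNT 4. With all 18 libraries and the main filter, edgeR called none of the 9 genes between the non-targeting siRNAs, beside 0.0732% of genes called in 4OHT and 0.0512% in DMSO, and in each treatment 1 of the 9 had an unadjusted p below 0.05.

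SERPINB7, SERPINB2 and SERPINB8 belong to a row of 10 clade B serpin genes of the table that spans 542.8 kilobases of chromosome 18. In gene order these are SERPINB5, SERPINB12, SERPINB13, SERPINB4, SERPINB11, SERPINB3, SERPINB7, SERPINB2, SERPINB10 and SERPINB8. Of the 10, 6 had a group mean of at most 1 CPM everywhere, and 4 were tested. SERPINB5 had 0 counts in all 18 libraries, which allows up to 0.0396 CPM over the DMSO_siNT group. SERPINB10, between SERPINB2 and SERPINB8, had 4, 22 and 10 counts summed over the 6 libraries of DMSO_siNT, 4OHT_siNT and 4OHT_siSMARCA4. SERPINB2 had 3842, 43349 and 58871 in the same groups, so high counts at SERPINB2 were not shared by its neighbour. Intervals and limits of this kind cover counting error only. SERPINB4, an epithelial inhibitor of chymotrypsin-like proteases, had 3 counts in DMSO_siNT, 166 in 4OHT_siNT and 415 in 4OHT_siSMARCA4. The ratio of the senescent group to the control was 50.7 with a 95% exact counting interval from 17 to 248. SERPINB4 was called higher in the knockdown too, from 2.00 to 4.87 CPM (1.29 ± 0.37, edgeR adjusted p = 0.0311). The groups overlapped, at 1.48 to 2.62 CPM in 4OHT_siNT and 1.51 to 10.2 CPM in 4OHT_siSMARCA4. The highest knockdown library was 4-2V, which had the most SMARCA4 left, and the lowest was 2-3VM. SERPINB3 is nearly identical in sequence and had 2, 0 and 5 counts, so how reads were split between the pair is uncertain, and SERPINB11 overlaps SERPINB3 on the other strand. The 3 clade B genes of chromosome 6 were expressed in every group. SERPINB6, an intracellular inhibitor, was at 129, 120.3 and 139 CPM with no call. SERPINB1, the elastase inhibitor, fell in senescence (−0.47 ± 0.12, edgeR adjusted p = 0.00295) and rose in the knockdown (0.76 ± 0.12, edgeR adjusted p = 0.000527), with means of 21.3, 15.3 and 26.01 CPM. SERPINB9, the granzyme B inhibitor, fell in senescence from 2.90 to 1.54 CPM (−0.91 ± 0.25, edgeR adjusted p = 0.00413).

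**Figure D5:**
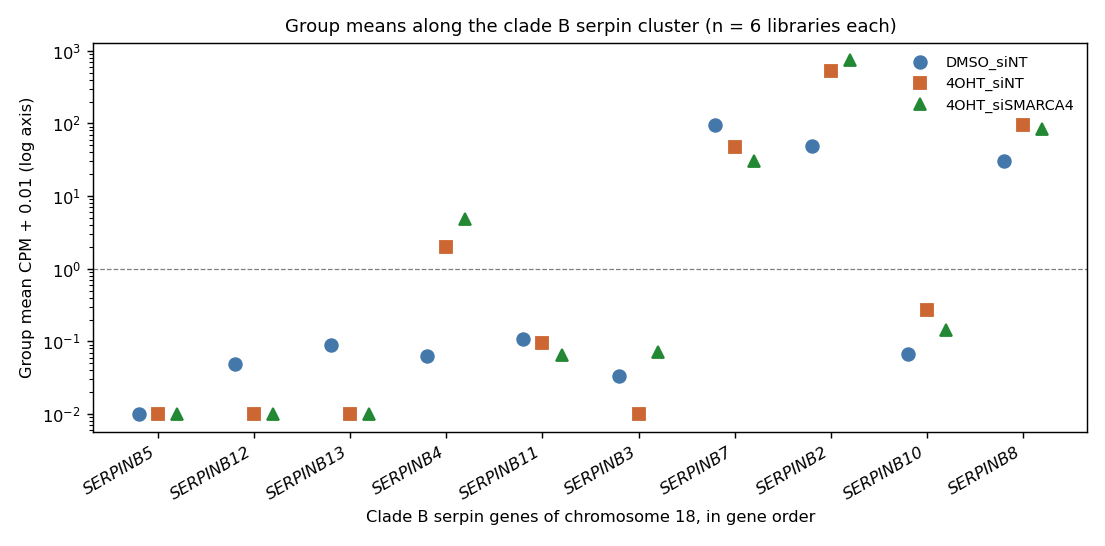
Group mean level (y axis, CPM plus 0.01 on a log axis, n = 6 libraries each) of the 10 clade B serpin genes of chromosome 18 in gene order (x axis), with the dashed line at 1 CPM. SERPINB7, SERPINB2 and SERPINB8 lie well above the line in every group, SERPINB4 above it in the 4OHT groups, and the other 6 below it.

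Among the other 28 serpins looked for, 10 passed the filter on low counts. Senescence raised 4 of them and lowered 3, beside 23.9% of all genes tested called higher and 28.9% lower. The median log2 fold change of the 10 was −0.08, and most were scarce. SERPINA9, a serpin of germinal centre B cells, had 0 counts in all DMSO_siNT libraries and 2.98 CPM in 4OHT_siNT, which is at least 75.1-fold higher against the limit of 3 counts over the control group. With that gene at its bound the median stayed at −0.08. Without DMSO_siNT 4-2V 11 were tested, and the counts were 5 higher and 3 lower in senescence, 2 and 3 in the knockdown, and 6 and 3 for the knockdown against DMSO_siNT. Those fits called 58.3%, 24.6% and 59.1% of all genes. SERPIND1 (heparin cofactor 2, a thrombin inhibitor) rose from 0.294 to 5.88 CPM (4.24 ± 0.43, edgeR adjusted p = 9.37e-08), and SERPINB4 is given above. The falls were SERPINB9 and SERPINB1, above, and SERPING1, the C1 inhibitor of complement, from 4.396 to 2.42 CPM (−0.87 ± 0.25, edgeR adjusted p = 0.00604). In the knockdown 2 rose (SERPINB1 and SERPINB4) and 2 fell, beside 4.99% of all genes tested called higher and 5.65% lower. The median of the 10 was −0.17. SERPING1 fell further, to 0.961 CPM (−1.32 ± 0.27, edgeR adjusted p = 0.00400), and SERPINA1, the antitrypsin gene, fell from 2.90 to 0.898 CPM (−1.65 ± 0.46, edgeR adjusted p = 0.0272). Against DMSO_siNT the knockdown cells had 4 higher and 3 lower, beside 23.3% and 27.3% of all genes tested. The largest falls were SERPING1 (−2.18 ± 0.27), SERPINB9 (−1.49 ± 0.26) and AGT, the angiotensinogen gene (−1.09 ± 0.29).

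Of 32 other genes of plasminogen activation, fibrinolysis and the coagulation proteases, 22 passed the filter. PLG, plasminogen itself, which is made mainly by the liver, was found only in DMSO_siNT 4-2V, at 0.239 CPM, and had 0 counts in the other 17 libraries. Of these 22, 9 rose and 3 fell in senescence, beside 23.9% of all genes tested called higher and 28.9% lower (52.8% in all). The median of the 22 was 0.40 beside −0.05 over all genes tested. The largest rises were in THBD (thrombomodulin), from 1.34 ± 0.622 to 27.3 ± 4.51 CPM (4.32 ± 0.28, edgeR adjusted p = 1.94e-10), F2RL1 (the protease-activated receptor PAR2), from 18.6 ± 7.10 to 269 ± 19.1 CPM (3.86 ± 0.20), and TFPI2 (a Kunitz-type inhibitor of plasmin and other proteases), from 67.2 ± 19.2 to 944 ± 73.5 CPM (3.81 ± 0.20). The falls were SORL1, an endocytic receptor that binds urokinase, from 16.8 ± 2.599 to 2.62 ± 0.691 CPM (−2.68 ± 0.23, edgeR adjusted p = 1.08e-08), and S100A10 and ANXA2, which together form a cell-surface receptor for plasminogen. S100A10 fell from 392 ± 307 to 85.0 ± 12.5 CPM (−2.21 ± 0.31, edgeR adjusted p = 6.42e-06) and ANXA2 from 2288 ± 437 to 1676 ± 234 CPM (−0.45 ± 0.13, edgeR adjusted p = 0.00839). The spread of S100A10 comes from DMSO_siNT 4-2V at 1012 CPM, without which it fell by 1.65 on the log2 scale.

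In the knockdown 1 of these 22 rose and 2 fell, beside 4.99% of all genes tested called higher and 5.65% lower. The median of the 22 was 0.0031. THBD rose again, to 65.9 ± 23.6 CPM (1.27 ± 0.22, edgeR adjusted p = 0.00118). SORL1 fell again, to 0.827 ± 0.382 CPM (−1.63 ± 0.27, edgeR adjusted p = 0.000696). F3, the tissue factor gene that starts coagulation, moved in the same directions as PLAT. It rose in senescence from 311 ± 101 to 659 ± 62.1 CPM (1.09 ± 0.19, edgeR adjusted p = 7.85e-05) and fell in the knockdown to 432 ± 113 CPM (−0.61 ± 0.19, edgeR adjusted p = 0.0421). Unlike PLAT, its knockdown libraries (331 to 620 CPM) overlapped with both 4OHT_siNT (570 to 728 CPM) and DMSO_siNT (212 to 491 CPM). Against DMSO_siNT 9 were higher and 4 lower, beside 23.3% and 27.3% of all genes tested. The changes were led by THBD (5.59 ± 0.29), F2RL1 (4.30 ± 0.20) and TFPI2 (4.19 ± 0.20) and by SORL1 (−4.31 ± 0.26), S100A10 (−1.77 ± 0.30) and F2RL2, the receptor PAR3 (−0.96 ± 0.19). Without DMSO_siNT 4-2V the counts were 11 higher and 4 lower in senescence, 5 higher and 4 lower in the knockdown, and 14 higher and 5 lower for the knockdown against DMSO_siNT. The shares of all genes called in those fits were 58.3%, 24.6% and 59.1%.

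The partners of SERPINH1 in the folding and modification of procollagen were all expressed, 29 of 29, and did not share a direction. Of them, 10 rose and 7 fell in senescence, beside 23.9% of all genes tested called higher and 28.9% lower. The median of the 29 was 0.07. The largest rises were in P4HA2, a prolyl 4-hydroxylase subunit (0.92 ± 0.13), PLOD2, a lysyl hydroxylase (0.87 ± 0.17), and COLGALT1, a collagen galactosyltransferase (0.85 ± 0.21). The largest falls were in its relative COLGALT2 (−2.21 ± 0.20), the prolyl 3-hydroxylase P3H2 (−1.15 ± 0.23) and P4HA3 (−0.80 ± 0.33, edgeR adjusted p = 0.0498). In the knockdown 1 was called higher, P4HA3 (1.39 ± 0.33, edgeR adjusted p = 0.00975), and 2 lower, P3H3 (−0.65 ± 0.17, edgeR adjusted p = 0.0173) and FKBP10, a collagen prolyl isomerase that works beside SERPINH1 (−0.51 ± 0.13, edgeR adjusted p = 0.0136). In this comparison 4.99% of all genes tested were called higher and 5.65% lower. The median of the 29 was −0.13 beside 0.01 over all genes tested. Against DMSO_siNT 5 of the 29 were higher and 10 lower, beside 23.3% and 27.3% of all genes tested. Without DMSO_siNT 4-2V the counts were 13 higher and 9 lower in senescence, 2 and 6 in the knockdown, and 6 and 11 against DMSO_siNT. Those fits called 58.3%, 24.6% and 59.1% of all genes. With all libraries PLOD2 (1.23 ± 0.18), P4HA2 (0.85 ± 0.13) and COLGALT1 (0.71 ± 0.21) led the rises against DMSO_siNT. COLGALT2 (−2.80 ± 0.21), P3H3 (−0.65 ± 0.17) and HSP90B1, the chaperone GRP94 (−0.62 ± 0.23), led the falls. HSP90B1 was highest in DMSO_siNT 4-2V, and without that library it was −0.26 and not called (adjusted p = 0.0553).

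The genes whose pattern was most like that of each member were found by Pearson's correlation of log2 CPM over the 18 libraries, which share the differences between the 3 groups, so that any gene that moves with senescence scores high. PLAU was most like RAB3A (0.991), MMP1 (0.989) and TMEM132A (0.987), and SERPINB2 was most like the same collagenase gene MMP1 (0.988), PNP (0.984) and CHST2 (0.984). PLAT was most like CACNA2D3 (0.988), WLS (0.986) and ENC1 (0.981). PLAUR was most like FZD8 (0.981), ANGPTL4 (0.981) and MYPOP (0.976). SERPINB8 was most like APLP1 (0.987), WBP1L (0.986) and ADAM12 (0.984). SERPINF1 was most like PCOLCE (0.940), the enhancer of procollagen cleavage, SLITRK5 (0.936) and ACSS3 (0.933). SERPINB7 was most like ANKRD1 (0.942), FAM122A (0.917) and TMOD2 (0.915). SERPINE2 was most like CYSTM1 (0.959), DAP3 (0.955) and MRPL15 (0.954), and SERPINH1 was most like GNAS (0.976), TOR3A (0.957) and SEPTIN9 (0.956).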

How the data were processed

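The authors made strand-specific libraries from polyadenylated RNA, sequenced single-end reads and aligned them with STAR (version 2.7.8a, hg38, per the submitters' processing notes). DESeq2 1.36.0 is named there too. The counting program, the annotation and the use of strand are not given in the sources used here. The authors deposited whole-number counts for each gene, not normalized, in 36 columns. The 2 lanes of each library were summed, giving 18 libraries. Of 29 labelled samples, 17 matched a library of the table, and 1 more library (2 columns) matched its group only. Lanes of a library differed by 1.19 to 1.27 chi-square per degree of freedom and libraries of a group by 2.33 or more, so none was counted as a duplicate. Nothing says that libraries came from separate cultures, so p-values measure the spread between these libraries.

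Genes were kept by filterByExpr (minimum count 10) and scaled by TMM. The quasi-likelihood test of edgeR 4.0.16 (R 4.3.3) was fitted to all 18 libraries without covariates, with Benjamini-Hochberg adjustment over all genes and a threshold of 0.05. A second fit had 6 groups by siRNA number. Levels are CPM on the TMM scale. Tests were tried on simulated counts. The common biological coefficient of variation was 23.3%. DESeq2 1.42.0, other scalings and filters, fewer libraries and a set block were tried as alternatives. The members and lists were chosen with earlier results of these data known. Named genes were the 9 members, SMARCA4, up to 3 called rises and falls per list and comparison, the 3 most similar genes, and the clade B cluster. A gene of the lists is not reported here. The extra counts without DMSO_siNT 4-2V were added after seeing the data.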

Additional observations from a re-analysis of the deposited data

Results flagged for a closer look

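In 27 sets of 6 libraries (9 genes in 3 groups), 5 had a library far from the others, where chance gives about 1.35 at 1 in 20 sets. The measure is the gap from the farthest library to its nearest neighbour as a share of the range. In 3 of the 5 sets that library was DMSO_siNT 4-2V as the lowest value: SERPINH1 at 233 CPM (0.942), PLAU at 551 CPM (0.755) and SERPINB8 at 13.7 CPM (0.654). PLAT was far above the other 4OHT_siNT libraries in 4-2VM, at 3607 CPM (0.769), and SERPINF1 was far above the other DMSO_siNT libraries in 2-1V, at 68.7 CPM (0.802).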

How the results depend on the processing

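The number of the 9 genes called in senescence was 5 to 8 in every alternative, in fits that called 21.5% to 58.3% of all genes. It was 6 to 8 when 1 library was left out (49% to 58.3% of all genes). Against DMSO_siNT the knockdown called 7 to 9 (21.5% to 61.2%), and 9 in each fit without 1 library (47.6% to 59.1%). The knockdown count of 3 was less stable: 2 to 4 without 1 library (6.93% to 24.6% of all genes called), 6 with only the groups compared in the fit (26.9%), 7 with siRNA 2 libraries alone (25.7%), 0 with siRNA 4 libraries alone (0.0303%, 4 genes in all) and 1 for changes over 2-fold (3.51%). The set name as a replicate block also gave 1 (1.77%). Pairing of the libraries by set name was not seen: deviations of the same set in different groups correlated from −0.286 to 0.299, with 5 of 15 pairs over 0.1. For different sets the range was −0.298 to 0.29, with 26 of 81 pairs over 0.1. The groups hold unlike mixes of sets, so this check does not exclude pairing. Under that block PLAT was −0.91 (adjusted p = 0.232) and SERPINE2 0.49 (adjusted p = 0.399), both without a call. Leaving out DMSO_siNT 4-2V raised the genes called in the knockdown comparison from 1397 to 3269 and the counts by siRNA to 6 (siRNA 2, 20.1% of all genes) and 5 (siRNA 4, 16.2%). In DMSO, siNT 2 against siNT 4 called 1 of the 9 genes (SERPINE2) in 3 alternatives. These were DESeq2 (13.3% of all genes called), every gene of at least 1 count (3.91%), and the fit without 4-2V (0.26%). Estimates near 0 changed sign. SERPINF1 in senescence was 0.34 with the block, 0.15 with VM sets (with or without the unlabelled library), 0.21 with siRNA 4 alone, and from −0.18 to 0.12 when 1 library was left out, the latter without DMSO_siNT 2-1V. With siRNA 4 alone SERPINH1 was 0.0063 in senescence, and PLAU −0.024 and SERPINB7 0.045 in the knockdown. Against siNT 4, SERPINB8 was −0.0079 with DESeq2 and with its size factors, and PLAU 0.021 with every gene of at least 1 count and 0.0035 without 4-2V. The cause was not tested. SERPINB7 in senescence lost its call with the compared groups only (adjusted p = 0.0530), with the block (0.0574) and with siRNA 4 alone (0.0562). Of 990 single-gene values, 931 kept direction and side of the threshold.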
